A study of Mus musculus with 24 samples.

Results

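The genes described here are 9 components of the Hedgehog pathway, Gli1, Gli2, Gli3, Evc, Evc2, Hhip, Ptch1, Smo and Boc, and the measurement is the histone mark H3K27me3 (trimethylation of lysine 27 of histone H3) at their promoters. They were chosen by name from the pathway, with earlier results of these data known. Each was given a promoter window of 3 kb on each side of the 5′ end of the gene in the mm10 (GRCm38) GENCODE annotation. Evc and Evc2 start from opposite strands 1605 bp apart, and every peak in the window of the former also lay in the window of the latter, so the 9 genes of 21938 protein-coding genes amount to 8 distinct promoters.

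The study profiled H3K27me3 by CUT&RUN, in which an antibody-tethered nuclease releases the marked DNA fragments, in cultured mouse cerebellar granule neurons (CGNs). The cells were granule neuron precursors from cerebella of early postnatal CD1-IGS mice, with each replicate a separate culture of pooled litters, and were grown for 1, 3, 5 or 7 days in vitro (DIV1, DIV3, DIV5, DIV7). All cultures were set to receive 1 µM cytosine arabinoside (AraC), which kills dividing cells, at DIV2, so that the DIV1 cultures were harvested before it and maturation and AraC cannot be told apart in a comparison with DIV1. In a separate pair of experiments the cultures received 5 µM GSK-126, an inhibitor of the H3K27 methyltransferase EZH2, or 1 µM GSK-J4, an inhibitor of the H3K27 demethylases KDM6A and KDM6B, or the DMSO vehicle of each, at DIV1 and were harvested at DIV5. Each of the 8 groups held 3 libraries, 24 in all, and each library is a list of broad peaks with a fold enrichment and a −log10 q-value.

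Hedgehog ligands are released with the help of the Scube proteins and bind Ptch1, a receptor that otherwise keeps the transducer Smo inactive. Boc is a co-receptor for the ligand and Hhip a decoy that sequesters it. Active Smo acts at the primary cilium, where the Evc and Evc2 proteins form a complex that relays its signal to the Gli transcription factors: Gli2 is the principal activator, Gli3 mostly a repressor, and Gli1 an activator that is itself a target of the pathway, as are Ptch1 and Hhip. In the cerebellum, Sonic hedgehog from Purkinje cells drives granule neuron precursors to divide, and the response ends as the cells leave the cell cycle. H3K27me3 is deposited by the Polycomb complex that contains EZH2 and is found at the promoters of silent developmental genes.

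The peak lists differed in size by library. They held 4740 to 22832 peaks that covered 1.07 to 6.57 Mb, 1348 to 3832 promoters had a peak, and the median peak was 146 to 195 bp long. The read depth behind each list is unknown, so the absence of a peak says only that no stretch passed the caller's threshold. Covered length was 3.69 ± 0.482 Mb (SD, n = 3) in the DMSO libraries of the GSK-126 experiment and 1.57 ± 0.468 Mb (n = 3) with GSK-126, and among the latter replicate 3 stood apart: it covered 1.63 Mb but had a peak in 3285 promoters, against 2034 and 1348 in the other libraries with the drug. Of 22 markers fixed for other cells of the cerebellum, 10 had a promoter peak in some library, such as Cldn5, of endothelium, in 24, Gdf10, of Bergmann glia, in 18, Mbp, of oligodendrocytes, in 14 and Pvalb, of interneurons, in 14. The other 12 were at 0 in all libraries, among them the defining markers Gfap and Aqp4 of astrocytes, Olig1, Olig2 and Mog of the oligodendrocyte lineage, Aif1 and Csf1r of microglia, Pecam1 of endothelium, Pcp2 of Purkinje cells and Gad1 and Pax2 of interneurons. Of the 7 granule neuron markers, Neurod1 had a peak in 5 libraries, Rbfox3 in 2 and Zic2 in 1, and Zic1, Pax6, Map2 and Tubb3 in none. Expression was not measured in these libraries, and a promoter peak does not by itself show that a gene is silent. In these bulk cultures a smaller share of cells that carry the mark and less of the mark per cell cannot be told apart.

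All 9 genes had a promoter peak in at least 1 library, and 5 had one in at least 12 of the 24. Gli3 had a peak in 20 libraries, Evc and Evc2 in 19, Gli1 in 16, Hhip in 14, Gli2 in 11 and Smo in 9, whereas Ptch1 and Boc had 1 library each. Among all protein-coding promoters, 38.0% had a peak in at least 1 library, 9.45% in at least 12 and 1.30% in all 24. These counts rest on lists of unequal size.

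The peaks were unevenly placed around the 5′ end. Of the 135 peaks in the 8 promoters, 98 lay wholly after the 5′ end, 28 wholly before it and 9 across it. Peaks before the 5′ end were those of Gli3 and the Evc pair, and with these left out 67 of 67 lay after it. The peaks of the Evc pair were counted from the 5′ end of Evc, and all 31 lay before that of Evc2. Many of the peaks are calls at the same promoter in several libraries, so they are not independent. Over all protein-coding promoters, of 79735 pairs of a peak and a window, 59.2% lay after the 5′ end and 25.2% before it. The peaks were short and modest, with a median of 211 bp, a fold enrichment of 2.71 to 4.90 (median 3.53) and a −log10 q of 1.03 to 2.55 (median 1.44).

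**Figure D1:**
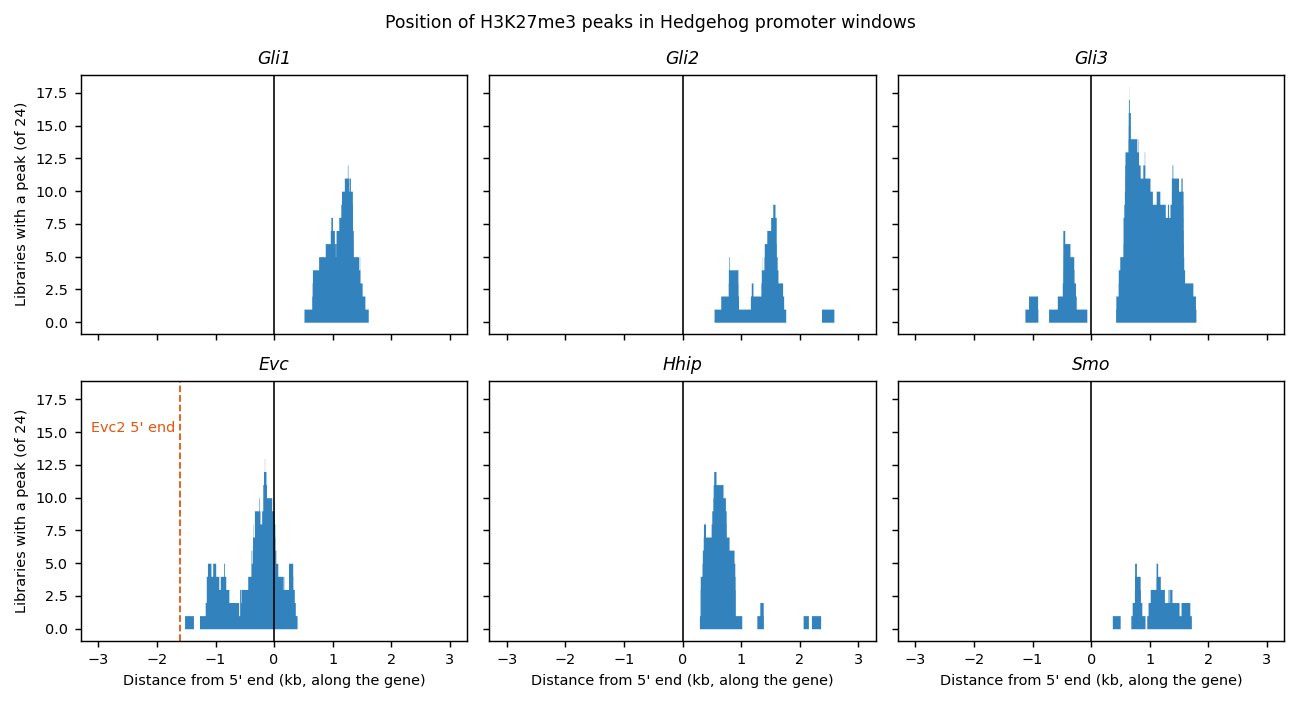
Number of libraries, of 24, with a deposited H3K27me3 peak at each distance (kb, along the direction of the gene) from the 5′ end of Gli1, Gli2, Gli3, Evc, Hhip and Smo, with a dashed line at the 5′ end of Evc2 in the Evc panel. The peaks of Gli1, Gli2, Hhip and Smo lay after the 5′ end, those of Gli3 on both sides of it, and those of the Evc pair mostly between both 5′ ends, where up to 13 libraries overlapped.

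The sequences below are shown because they are the stretches of Gli1, Gli2 and the Evc pair that were covered in the most libraries, written 5′ to 3′ along the gene from the mm10 reference, which is that of the C57BL/6J strain and not of the CD1-IGS cells. Capitals mark bases covered in at least 10 libraries for Gli1, 7 for Gli2 and 11 for the Evc pair. The Gli1 stretch is chr10:127340619-127340843 on the minus strand, the Gli2 stretch chr1:119052002-119052202 on the minus strand, and that of the Evc pair chr5:37336980-37337130, read along Evc on the minus strand.
Gli1: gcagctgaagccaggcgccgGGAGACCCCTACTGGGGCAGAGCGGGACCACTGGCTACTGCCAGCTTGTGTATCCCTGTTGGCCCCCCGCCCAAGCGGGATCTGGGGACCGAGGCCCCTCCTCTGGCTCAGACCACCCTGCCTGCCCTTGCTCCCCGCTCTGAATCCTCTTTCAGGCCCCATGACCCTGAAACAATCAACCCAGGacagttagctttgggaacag
Gli2: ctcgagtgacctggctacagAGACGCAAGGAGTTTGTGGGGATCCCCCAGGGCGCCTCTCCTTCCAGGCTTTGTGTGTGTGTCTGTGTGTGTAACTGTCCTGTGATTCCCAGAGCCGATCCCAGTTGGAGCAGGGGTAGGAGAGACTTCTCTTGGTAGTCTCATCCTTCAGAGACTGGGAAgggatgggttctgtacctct
Evc and Evc2: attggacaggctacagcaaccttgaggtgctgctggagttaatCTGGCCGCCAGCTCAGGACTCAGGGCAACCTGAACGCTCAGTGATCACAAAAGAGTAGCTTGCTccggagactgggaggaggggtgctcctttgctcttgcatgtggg

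The Gli1 stretch lies 1131 to 1355 bp after the 5′ end in an intron, which a predicted gene, Gm47200, also overlaps. It has a GC content of 64.0% and 7 CpG dinucleotides. The Gli2 stretch lies 1417 to 1617 bp after the 5′ end in an intron, with a GC content of 55.7% and 4 CpG. The stretch of the Evc pair lies at −236 to −86 bp from the 5′ end of Evc, in no annotated transcript, with a GC content of 56.3% and 3 CpG. Of the 31 peaks of the Evc pair, 19 lay wholly between both 5′ ends, 12 reached into Evc, and none reached past the 5′ end of Evc2 into its gene.

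For the other members the most shared base pairs were as follows. In Gli3 they were at chr13:15463875-15463876, 640 bp after the 5′ end in a noncoding exon of a Gli3 transcript, and 18 libraries covered them. Peaks of Gli3 also lay 74 to 1130 bp before the 5′ end. In Hhip, 12 libraries covered chr8:80057437-80057475 in a coding exon, 531 to 569 bp after the 5′ end. In Smo, 5 libraries covered chr6:29736246-29736275, also in a coding exon, 743 to 772 bp after the 5′ end. The single Ptch1 peak, at DIV3 in replicate 3, lay at chr13:63572462-63572613 with a fold of 4.36, and the single Boc peak, with GSK-126 in replicate 3, at chr16:44558146-44558233 with a fold of 4.29.

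The promoters were richer in CpG than most. The 6 kb window of Gli3 held 258 CpG, the 97.4th percentile of all protein-coding promoters, and the others held 128 (Hhip) to 192 (Gli2), against a median of 108. The GLI-binding motif GACCACCCA, searched on both strands, occurred in 4.91% of all windows and, among the members, in the window of Ptch1 alone, at chr13:63573465-63573473, 125 bp after the 5′ end, where 0 libraries had a peak. Ptch1 has a RefSeq start 7863 bp inside the gene as annotated by GENCODE, and a window around that start had a peak in 0 libraries.

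Among the transcription factors, Gli1 is the activator whose own transcription follows pathway activity. The percentage of its window covered by peaks was 0, 2.92 and 1.08 at DIV1 (replicates 1 to 3), 0, 0 and 10.8 at DIV3, 15.85, 6.28 and 3.55 at DIV5, and 13.2, 5.07 and 0 at DIV7. All 3 libraries at DIV5 were above the 3 at DIV1, which held for 6.53% of the 3584 promoters with coverage in at least 3 libraries of the time course, and the days otherwise overlapped. In lists cut to equal length, as described below, the DIV5 and DIV1 libraries overlapped, with means of 1.18 ± 2.05% and 1.33 ± 1.48% (SD, n = 3). Cultures given DMSO as the vehicle of GSK-126 had 9.65, 8.20 and 1.82, and those given GSK-126 had 0, 0 and 2.05. For GSK-J4 the vehicle cultures had 6.93, 0 and 6.45 and the treated ones 0, 2.57 and 2.75. The lowest DMSO library lay below the highest library with GSK-126, and the groups of the GSK-J4 experiment overlapped. The Gli1 peaks had folds of 3.74 to 4.90 with a median of 4.25, against medians of 3.375 for Gli2 and 3.12 for Gli3.

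Gli2, the principal activator, had no peak at DIV1. Its window was covered by 0, 0 and 6.92% at DIV3, 3.02, 0 and 6.20% at DIV5, and 0, 0 and 3.90% at DIV7. The DMSO libraries that served GSK-126 had 9.77, 4.87 and 7.17%. Those that served GSK-J4 had 5.28, 7.35 and 7.05%. Gli2 was covered in all 6 vehicle libraries and in 8 of the 9 libraries harvested at DIV5 without an inhibitor. With GSK-126 all 3 libraries were at 0, and with GSK-J4 they were 0, 0 and 6.20%. Elsewhere in the gene 13 libraries held 21 peaks, with folds of 3.14 to 4.31.

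Gli3, the main repressor, had a peak in more libraries than any other member. Its window was covered by 0, 11.35 and 7.55% at DIV1, 3.37, 9.92 and 26.2% at DIV3, 14.6, 19.1 and 17.3% at DIV5, and 3.18, 0 and 7.83% at DIV7. The DIV5 libraries were the closest together, with a mean of 17.0 ± 2.30% (SD, n = 3), and all lay above the 3 libraries at DIV1 and the 3 at DIV7, which had a mean of 3.67 ± 3.94%. DIV5 lay wholly above DIV1 at 6.53% of promoters and above DIV7 at 17.6%, and the DIV7 lists were shorter, at 1.19 to 2.25 Mb against 2.37 to 4 Mb. In lists cut to equal length Gli3 had 0 in each DIV1 library, 1.09 ± 1.89% at DIV5 and 2.53 ± 2.28% at DIV7. There DIV5 overlapped with DIV1 and with DIV7. In the GSK-126 experiment Gli3 was at 23.2, 16.6 and 16.4% with DMSO and 0, 0 and 5.77% with the inhibitor. These did not overlap, as at 46.0% of the promoters tested. In the GSK-J4 experiment it was 5.47, 5.68 and 6.85% with DMSO and 5.52, 13.9 and 22.1% with the inhibitor, of which the lowest lay within the DMSO range.

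The shared window of Evc and Evc2, whose products relay the signal of Smo, was covered by 0, 2.45 and 5.78% at DIV1, 4.15, 2.52 and 10.85% at DIV3, 11.35, 5.90 and 14.8% at DIV5, and 3.42, 7.13 and 10.1% at DIV7. All 3 libraries at DIV5 were above all 3 at DIV1, as at 6.53% of promoters, by a small margin in the case of 5.90 and 5.78%. They remained so in lists cut to equal length, with DIV1 at 0, an order that 4.79% of promoters had there. With DMSO it was 3.30, 14.1 and 5.95% in the GSK-126 experiment, and 0 in each library with the inhibitor. In the GSK-J4 experiment it was 9, 1.97 and 1.35% with DMSO and 6.45, 0 and 13.25% with the inhibitor, and these overlapped.

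Hhip, the decoy for the ligand, was covered by 0, 2.47 and 10.8% at DIV1, 0, 4.13 and 11.7% at DIV3, 0, 3.52 and 4.53% at DIV5, and 0, 2.80 and 2.85% at DIV7. The library numbered 1 had no peak on any of the 4 days. With DMSO it was 7.70, 9.33 and 11.3% in the GSK-126 experiment and 0 in all 3 libraries with the inhibitor. In the GSK-J4 experiment it was 8.77, 0 and 0% with DMSO and 3.37, 0 and 7.43% with the inhibitor. Outside the promoter window, 6 libraries had a peak 6.1 to 6.5 kb after the 5′ end, and 5 of these had a promoter peak too.

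Smo, the transducer, had a promoter peak in 0 of the 6 libraries at DIV1 and DIV3 and in 4 of the 6 at DIV5 and DIV7. The values were 11.3, 0 and 5.32% at DIV5 and 5.42, 0 and 3.85% at DIV7, with no peak in replicate 2 of either. The DMSO libraries that served GSK-126 had 2.93, 0 and 2.73%, while those that served GSK-J4 had 4.13, 0 and 3.95%. It was 0 in all 3 libraries with GSK-126 and 0, 0 and 3.92% with GSK-J4. Ptch1 and Boc, each with a single peak, had a covered percentage of 2.53 and 1.47 in those libraries and 0 in all others.

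**Figure D2:**
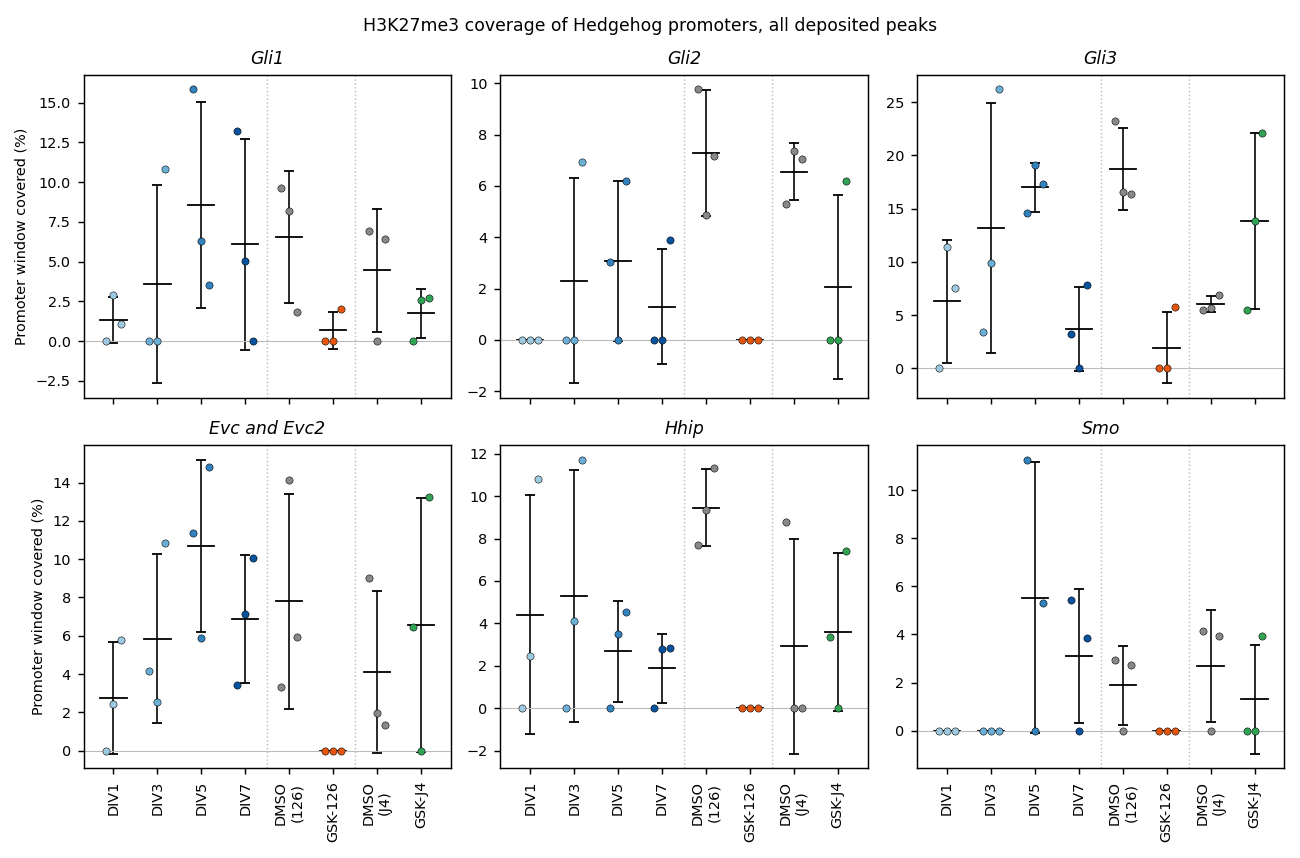
Percentage of the 6 kb promoter window covered by deposited peaks (y axis) in the 8 groups (x axis) for Gli1, Gli2, Gli3, the shared window of Evc and Evc2, Hhip and Smo. Points are libraries and bars are the mean ± SD of 3. With GSK-126, Gli2, the Evc pair, Hhip and Smo were at 0 in all 3 libraries and Gli1 and Gli3 had a peak in replicate 3 alone.

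Covered percentage followed the size of the list to a different degree by gene. Across the 24 libraries, which share a scale set by the caller, the Pearson correlation of covered percentage with covered length was 0.729 for Gli3, 0.684 for Hhip, 0.499 for the Evc pair, 0.394 for Gli2, 0.316 for Gli1 and 0.076 for Smo. For the tests, therefore, the lists of each experiment were cut to the length of the shortest list, at 1.11, 1.07 or 1.40 Mb, by the −log10 p of the peaks, and the promoters with coverage in at least 3 libraries were fitted together with limma. With the lists cut this way Gli1 had a peak in 9 libraries, Gli3 and the Evc pair in 12, Smo in 6, Gli2 in 5, Hhip in 4, Boc in 1 and Ptch1 in 0.

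Maturation from DIV1 to DIV7 was the first comparison. Of 1796 promoters tested, 8 were higher and 10 lower at DIV7, 1.00% in all, and none of the 4 members tested (Gli1, Gli3, Evc and Evc2) was among them. Gli2, Hhip and Smo, with coverage in fewer than 3 libraries, were not tested. Gli1 was 4.76 points higher (SE 2.79, 95% interval −1.48 to 11.0, limma adjusted p = 0.525; 1.2 points without replicate 1 of DIV7 and 7.8 without replicate 3), the Evc pair 3.52 points (SE 2.38, interval −1.79 to 8.83, adjusted p = 0.588; 1.71 without replicate 2 of DIV7 and 5.28 without replicate 3) and Gli3 2.53 points (SE 4.07, interval −6.54 to 11.6, adjusted p = 0.840; 1.59 without replicate 3 of DIV7). Without the first replicate of every day, an alternative chosen after seeing the data, Gli1 was 0.533 points higher. The median over all promoters tested was 0.283 points, and 53.0% were higher. With all deposited peaks, where 3584 promoters and 7 members were tested, none of the 7 was called and Gli3 had the opposite sign, at −2.63 points. Smo, with a peak from DIV5 onward only, differed by 5.53 points between DIV5 and DIV3 in these lists (SE 2.53, limma adjusted p = 1.0).

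The steps between days gave no calls among the members either. From DIV1 to DIV3, 0.334% of promoters were called and the smallest adjusted p of a member was 0.810. From DIV3 to DIV5, the percentage called was 0 (unadjusted, 65 promoters were higher and 48 lower below 0.05), and the Evc pair, at 6.90 ± 4.04% (n = 3) against 1.38 ± 2.40%, differed by 5.52 points (SE 2.38, limma adjusted p = 0.757). From DIV5 to DIV7, 0.334% were called and the smallest adjusted p of a member was 0.945. The linear trend over the days called 0.0557% of promoters, with a slope of 0.803 points per day for the Evc pair (adjusted p = 0.419) and 0.773 for Gli1 (adjusted p = 0.476). With all deposited peaks the 7 members tested, with the Evc pair as 2 of them, were all lower at DIV7 than at DIV5. Few promoters went the other way, as only 12.7% of the 3584 tested were higher, and the DIV7 lists were shorter. The median was 2.47 points lower for the members against 1.96 over all promoters. Gli3 differed by −13.3 points, which did not pass (limma adjusted p = 0.780). At equal length the difference of Gli3 had the opposite sign, at 1.44 points (adjusted p = 1.0).

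The comparison of GSK-126 with DMSO asked which promoters kept the mark when EZH2 was inhibited. With the lists cut to the same length, 64 of 939 promoters were called, 6.82%, but no member could be tested. In the cut lists Gli2 had a peak in 2 of 3 DMSO libraries and in none with GSK-126, as did the Evc pair and Smo, Gli3 had 1 library in each group, Gli1 had 1 library with GSK-126 alone, and Hhip had none. The losses described below are therefore those of the deposited lists, whose covered length also differed between the groups, and the part of that difference in them was not tested.

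With all deposited peaks, 636 of 2385 promoters were called lower with GSK-126, 26.7%, and 3 of the 6 members tested were among them. Gli3 went from 18.7 ± 3.89% (SD, n = 3) to 1.92 ± 3.33%, a difference of −16.8 points (SE 2.66, 95% interval −23.1 to −10.5, limma adjusted p = 0.0068). Hhip went from 9.46 ± 1.82% to 0, a difference of −9.46 points (SE 1.62, interval −13.3 to −5.62, adjusted p = 0.00799), and Gli2 from 7.27 ± 2.45% to 0, a difference of −7.27 points (SE 1.77, interval −11.5 to −3.07, adjusted p = 0.0249). The Evc pair differed by −7.79 points (SE 2.85, adjusted p = 0.0838) and Gli1 by −5.87 points (SE 2.37, adjusted p = 0.108), neither of which passed. The median over all promoters tested was −4.77 points. Hhip, Gli2 and the Evc pair had no coverage with GSK-126 and passed the filter of 3 libraries through the DMSO libraries alone, as did 390 of the 2385 promoters, so they had to be lower with GSK-126 once tested, and the number of members called is no support for a loss. Gli1 and Gli3 had coverage in both groups, with GSK-126 in replicate 3 alone. The summed coverage of the 22 markers of other cells also differed, at 60.02 to 88.48 points with DMSO and 14.05 to 23.22 with GSK-126, and its part in these values was not tested.

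Which members were called depended on single libraries. Gli3 was called with each of the 6 libraries left out, by −18.7 to −14.6 points (adjusted p = 0.0130 to 0.0285), and without replicate 3 of GSK-126 its difference was −18.7 points (adjusted p = 0.0175). In that last fit the remaining GSK-126 libraries were at 0 and Gli3 passed the filter through the DMSO libraries alone. It had to be lower there, so that fit is no check of stability. Hhip and Gli2 were at 0 in every GSK-126 library. Leaving 1 of these out therefore could not change their differences, only the error and the adjustment, and is no check of stability. Hhip was called without any 1 of the GSK-126 libraries (adjusted p = 0.0233 to 0.0371), and could not be tested without a DMSO library. Gli2 was not called without any 1 of the GSK-126 libraries (adjusted p = 0.0514 to 0.0851), whereas Gli1 was called when replicate 3 of DMSO was left out (−8.24 points, adjusted p = 0.0387).

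Every GSK-126 library lay below every DMSO library at 46.0% of the promoters tested. Of the members with coverage in both groups, this held for Gli3 and not for Gli1. It held for Gli2, the Evc pair and Hhip too. These were tested through the DMSO libraries alone and could not have overlapped, so the order there is no support for a loss. A peak in all 3 DMSO libraries and in none with GSK-126 was found for 20.6% of the 1893 promoters that had one in all DMSO libraries, and for 4 of the 6 members: Gli2, Evc, Evc2 and Hhip. The pair counts as 2 of these through a single window. Among the 1893 promoters, the DMSO values of those that lost every peak had a median covered percentage of 6.79 and those that kept one 11.4, and the members that lost every peak had 7.27 (Gli2), 7.79 (the Evc pair) and 9.46 (Hhip). Gli3, at 18.7%, and Gli1, at 6.56%, had a peak with GSK-126 in replicate 3 only. That library stood apart, with a peak in 3285 promoters against 2034 and 1348. Its Gli1 peak lay 873 to 995 bp after the 5′ end, within that of DMSO replicate 1 (760 to 1338 bp). It lay outside those of DMSO replicates 2 (1058 to 1549 bp) and 3 (1151 to 1259 bp).

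**Figure D3:**
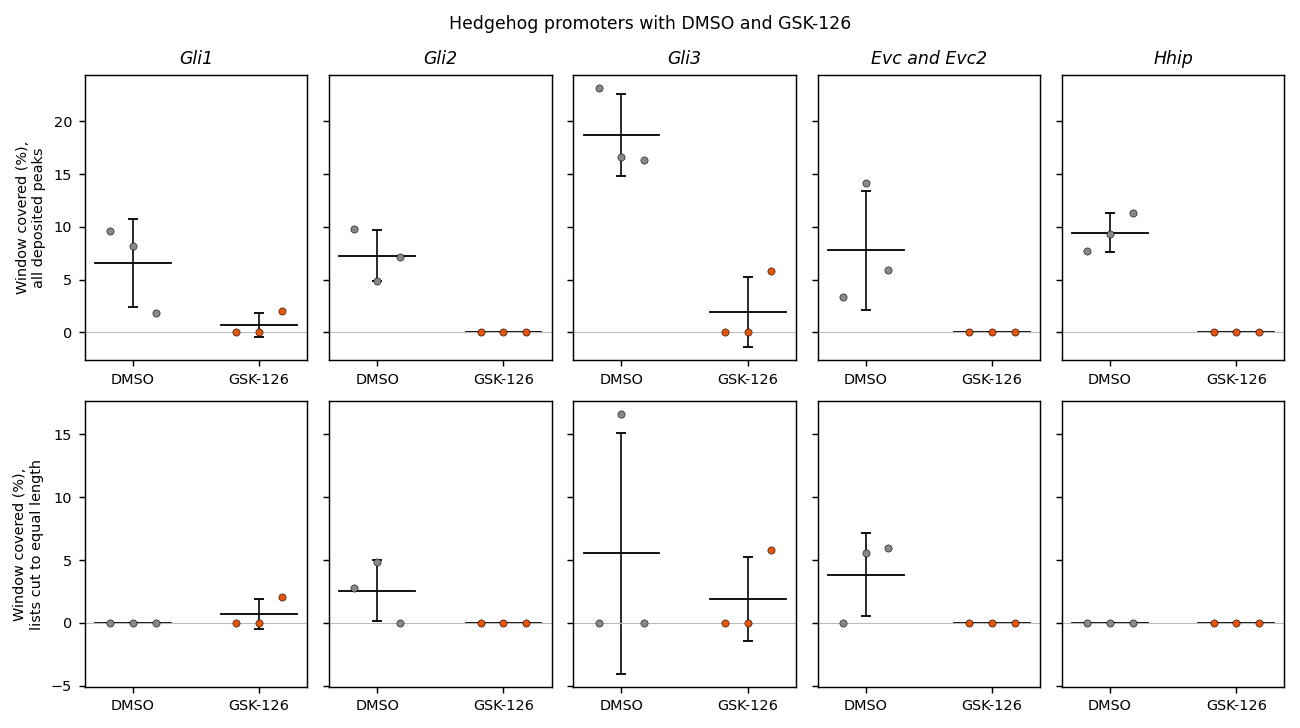
Percentage of the promoter window covered (y axis) in each DMSO and GSK-126 library for Gli1, Gli2, Gli3, the Evc pair and Hhip, with all deposited peaks in the upper row and with lists cut to the same length in the lower row. In the upper row Gli2, Gli3, the Evc pair and Hhip do not overlap between the groups, as at 46.0% of the promoters tested. Gli2, the Evc pair and Hhip were tested through the DMSO libraries alone and could not have overlapped. In the lower row each panel has at least 1 DMSO library at 0.

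With GSK-J4, the inhibitor of demethylases, the percentage of 1525 promoters called was 0 (limma; unadjusted, 33 were higher and 40 lower below 0.05), and 4 members were tested. Gli3 went from 3.05 ± 2.79% (n = 3) to 11.3 ± 6.57%, a difference of 8.28 points (SE 3.53, 95% interval 0.197 to 16.4, adjusted p = 0.975). The Evc pair differed by 1.49 points (interval −6.22 to 9.21) and Gli1 by −1.03 points (interval −7.16 to 5.10), so that shifts of several points in either direction remain within the error. With all deposited peaks 0 of 2034 promoters were called.

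The effects of the inhibitors, each against its own DMSO, were compared directly. At equal length 1.30% of 1766 promoters were called and no member was, with Gli3 at −12.3 points (GSK-126 effect minus GSK-J4 effect, SE 6.92, interval −27.7 to 3.15, limma adjusted p = 0.560) and the Evc pair at −6.59 points (SE 3.52, interval −14.4 to 1.23, adjusted p = 0.539). With all deposited peaks 108 of 3026 promoters were called lower, 3.57%, and among the 7 members tested Gli3 was, at −24.6 points (SE 5.13, interval −36.0 to −13.2, adjusted p = 0.0327). It was not called with 8 of the 12 libraries left out in turn, nor with the replicate number as a block (adjusted p = 0.0851). The DMSO mean of Gli3 was 18.7% in the GSK-126 experiment and 6.0% in the GSK-J4 experiment. A fall as large as that with GSK-126 was therefore not possible with GSK-J4.

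Hhip lay at −10.1 points (adjusted p = 0.135) and the Evc pair at −10.3 points (adjusted p = 0.257), and both fell short. The other 3 members tested lay between −3.18 and −0.5 points.

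Smo carried a second, stronger peak inside its first intron, about 12 kb after the 5′ end and outside the promoter window. It was present in 24 of 24 libraries, with a fold enrichment of 5.46 to 8.42 and a −log10 q of 2.87 to 14.1, and ranked 29th to 304th in its list. The part common to all libraries, chr6:29747926-29748163 on the plus strand, 12423 to 12660 bp after the 5′ end, is a tandem repeat, printed here with its 35 CTGTG units in capitals because it is the only stretch of any member covered by a peak in every library. All 238 bases are soft-masked in the reference, as are 99.7% of the 1385 bp that the peaks cover in sum, and it holds no CpG. The control of the peak calling is not given, and whether this peak reflects the mark was not tested.
Smo intron: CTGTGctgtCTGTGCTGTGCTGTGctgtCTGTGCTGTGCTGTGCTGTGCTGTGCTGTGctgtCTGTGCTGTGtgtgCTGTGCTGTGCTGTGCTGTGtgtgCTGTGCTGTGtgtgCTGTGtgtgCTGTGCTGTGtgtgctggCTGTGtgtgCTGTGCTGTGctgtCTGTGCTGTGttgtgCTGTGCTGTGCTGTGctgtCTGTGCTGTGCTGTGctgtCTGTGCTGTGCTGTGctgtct

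The fold of this intronic peak was 6.69, 7.89 and 7.51 with DMSO and 6.82, 7.07 and 7.38 with GSK-126, with means of 7.36 ± 0.613 and 7.09 ± 0.281 (SD, n = 3), so the groups overlapped. It was 7.64 ± 0.177 and 7.48 ± 0.272 with DMSO and GSK-J4, and 6.87 ± 0.290, 6.71 ± 1.22, 8.07 ± 0.549 and 7.24 ± 0.304 at DIV1, DIV3, DIV5 and DIV7. Of 518 merged regions with a peak in every library, 36 were more than 90% soft-masked, so a peak of this kind was in the minority. The promoter peaks of the members were mostly outside repeats, with median soft-masked shares of 0 to 12.98%.

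**Figure D4:**
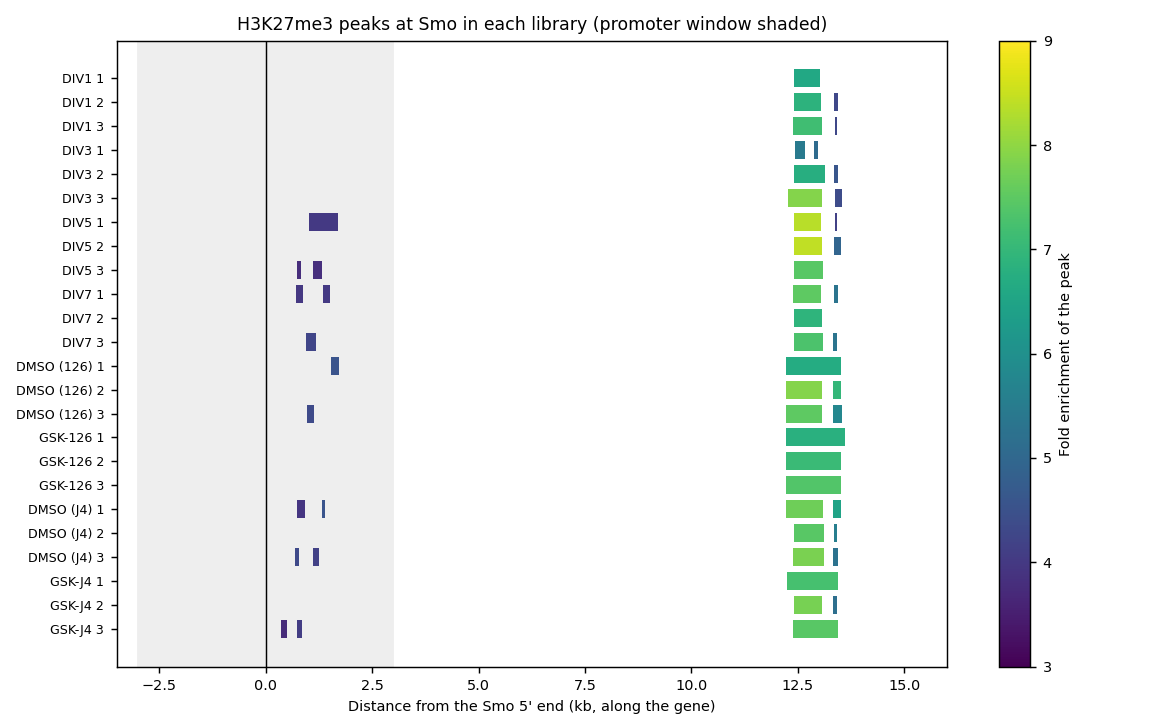
Peaks of each of the 24 libraries (rows) between 3.5 kb before and 16 kb after the 5′ end of Smo (x axis, kb), coloured by fold enrichment, with the promoter window shaded. Every library has the peak past 12 kb, and 9 have a weaker peak in the promoter window.

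Outside the 9 members, 38 other pathway genes were counted in 4 lists. Of 8 ligands and genes of ligand release, all had a promoter peak in some library and 3 in at least 12: Scube1, a secreted carrier of the ligand, in 21, Scube2, its relative, in 19, and the ligand Dhh in 14, whereas Shh had 1. Among the other receptors and co-receptors, Lrp2 had 14, Cdon 1 and Gas1 0. Of 14 other transducers, 5 had a peak in any library, Csnk1a1, a kinase that phosphorylates Smo and the Gli factors, in 13, Kif7 in 3 and Sufu, the inhibitor of the Gli factors, in 1. Of 12 other targets 9 had a peak in any, with Ccnd2 in 18, Ccnd1 in 17, both cell cycle cyclins, and Atoh1, the factor that defines the precursors, in 14. The median number of libraries with a peak was 6 for the ligands, 0 for the transducers and 4.5 for the targets, and the lists were not tested against each other.

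None of these genes was called at equal length. With all deposited peaks 2 of the 8 that could be tested were called lower with GSK-126, a share near the 26.7% of all promoters. Atoh1 was covered by 9.10, 11.98 and 14.4% with DMSO and by 0 in all 3 GSK-126 libraries, a difference of −11.8 points (SE 1.83, limma adjusted p = 0.00623). Scube2 was covered by 19.8, 8.63 and 17.4% with DMSO and by 1.87, 0 and 0% with the inhibitor, a difference of −14.6 points (SE 2.98, adjusted p = 0.0142, and 0.0503 without replicate 3 of GSK-126). The groups did not overlap at either gene, as at 46.0% of promoters, and Atoh1 too passed the filter through the DMSO libraries alone.

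Scube1 kept a peak in all 3 libraries with GSK-126, at 14.8, 8.08 and 5.88% against 17.0, 10.85 and 13.7% with DMSO, and the difference of −4.27 points did not pass (limma adjusted p = 0.292). Over the time course it was covered by 5.08, 16.02 and 16.9% at DIV1 and 0 in all 3 libraries at DIV7, a difference of −12.7 points (adjusted p = 0.153). Ccnd2 was likewise at 0 in all 3 DIV7 libraries, against 2.65, 10.4 and 18.35% at DIV1 (−10.5 points, adjusted p = 0.174). Of the 1376 promoters with a peak in all DIV1 libraries, 21.1% had none in any DIV7 library. The DIV7 lists were also shorter, with a mean of 1.56 Mb against 3.53 Mb at DIV1. Among the members no gene was covered in all DIV1 libraries. Replicate 1 of DIV1 had a peak in 0 of the 8 member windows, and its list covered 1.326 Mb against 5.185 and 4.085 Mb in replicates 2 and 3.

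The promoters whose covered percentage followed those of the members most closely over the 24 libraries differed by member. Among 2061 promoters with a peak in at least 12 libraries, the highest Pearson correlations were with Frmd3 (0.786), Gm3252 (0.769) and Cpxm2 (0.726) for Gli1, Ror2 (0.889), Slc8a3 (0.852) and Ndnf (0.851) for Gli3, Fbxo32 (0.828), Tmem238 (0.806) and Epha6 (0.799) for the Evc pair, and Plpp3 (0.864), Thbs1 (0.861) and Ntsr2 (0.858) for Hhip. The libraries share their list length in these values, and the median correlation of all candidates was 0.211 for Gli1, 0.506 for Gli3, 0.341 for the Evc pair and 0.458 for Hhip. When the lists were cut to the same length, 0 of the 12 pairs were again among the highest 3, and their correlations ranged from −0.185 to 0.718.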

How the data were processed

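H3K27me3 CUT&RUN was measured in 24 libraries of cultured mouse CGNs, in 8 groups of 3 taken from the sample labels. The authors trimmed reads with Trimmomatic 0.38, aligned them to mm10 with STAR 2.7.2b and called broad peaks in each library with MACS2 2.1 at an FDR of 0.1; the control is not given in the sources used here. The deposited lists hold a fold enrichment (a ratio) and −log10 p-values and q-values (neg log10) for each peak, with no read counts, so depth and its precision are unknown, and counting intervals cannot be given. The authors' DESeq2 test of read counts could not be repeated. Here the percentage of each promoter window (3 kb each side of the 5′ end, GENCODE vM21 protein-coding genes) covered by peaks was computed in Python 3.11.15, with lists cut to the shortest covered length of the experiment by −log10 p. Promoters with coverage in at least 3 libraries were fitted with limma 3.58.1 (R 4.3.3; robust eBayes, two-sided, Benjamini-Hochberg over all promoters, threshold 0.05). Alternatives were all deposited peaks, a stricter q, ranking by fold, a 1 kb flank, a filter of 1 library, a replicate block and leaving out each library. The fit was tested on simulated data. The members, named genes (all members, up to 4 genes of each pathway list by calls or recurrence, and the 3 most correlated promoters) and lists were chosen with earlier results of these data known, and an item of the pathway lists is not reported here. The control samples are the DMSO libraries. Replicates are separate cultures, and p-values measure the spread between them.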

Additional observations from a re-analysis of the deposited data

Results flagged for a closer look

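The effects of the inhibitors were called different at 1 of the 7 members and 1 of the 13 other pathway genes tested. This was on all deposited peaks and in a fit without the replicate block. Over all promoters 108 of 3026 were called, 3.57%, all of them lower. The test was of the difference itself (limma, GSK-126 effect minus GSK-J4 effect, each against its own DMSO). Gli3 had a difference of −24.62 points of covered percentage (SE 5.13, adjusted p = 0.0327): its coverage was lower with GSK-126 and its mean higher with GSK-J4. Scube2 had a difference of −19.19 points (SE 4.37, adjusted p = 0.045). Leaving out each of the 12 libraries in turn gave −28.8 to −20.5 points for Gli3 (adjusted p = 0.00959 to 0.0992) and −22.5 to −16.8 for Scube2 (adjusted p = 0.0270 to 0.116). With the replicate number as a block neither was called (adjusted p = 0.0851 for Gli3 and 0.103 for Scube2). With lists cut to the same length the differences were −12.3 points for Gli3 (adjusted p = 0.560) and 0.139 for Scube2 (adjusted p = 0.998). The DMSO sets were themselves unlike. Gli3 had a mean of 18.7% in the set for GSK-126 and 6.0% in that for GSK-J4. Scube2 had 19.8, 8.63 and 17.4% in the former and 7.05, 2.87 and 0% in the latter. A fall in points as large as the mean fall with GSK-126 was therefore not possible in the GSK-J4 experiment. The covered length of the lists moved in the same direction as these values, and its part in them was not tested.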

How the results depend on the processing

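No member was called in any comparison at equal list length, and each of the other settings tried (a minimum −log10 q of 2, peaks ranked by fold, a flank of 1 kb, coverage in at least 1 library, a replicate block) also called 0 members. The stricter q left 0 members to test, and in the GSK-126 comparison 7 were tested with coverage in at least 1 library and 0 under each of the others, so these say nothing of stability there. Calls arose with all deposited peaks. There 3 of the 6 members tested were called lower with GSK-126, against 26.7% of 2385 promoters. The number was also 3 with the replicate block, and between 0 and 2 when single libraries were left out (0 at equal length, 1 or 2 with all peaks). Gli2, Hhip and the Evc pair had to be lower once tested, so these counts are no support for a loss. For the difference between the inhibitors 1 of 7 members tested was called with all peaks, where 3.57% of promoters were called. With single libraries left out it was 0 to 1: Gli3 without replicate 3 of DMSO for GSK-126 or without any 1 GSK-J4 library, and Hhip without replicate 1 of DMSO for GSK-J4. The difference of Gli3 between DIV7 and DIV1 turned to −2.63 points with all peaks, and that between DIV7 and DIV5 from 1.44 to −13.3. That of the Evc pair between GSK-J4 and DMSO ranged from −0.431 to 4.17 points with single libraries left out, negative without replicate 3 of DMSO (−0.333) or of GSK-J4 (−0.431). At equal length the correlation of Gli3 became −0.185 with Ror2 and −0.118 with Slc8a3. The cause was not tested in any of these. Over all promoters the replicate block changed the calls from 64 to 0 for GSK-126 and from 23 to 1 for the difference between the inhibitors at equal length, and from 641 to 591 and from 108 to 0 with all peaks. From DIV1 to DIV3 it changed them from 6 to 0 and from DIV5 to DIV7 from 6 to 3 at equal length. Whether libraries with the same replicate number came from the same culture is not stated. Correlations of same-numbered deviations were −0.072 to 0.156 in the time course, −0.056 to 0.103 in the GSK-126 and 0.027 to 0.033 in the GSK-J4 experiment. Such low values cannot settle the pairing, so the fits without a block leave it open. Signal that falls short of the caller's threshold is not in these lists, and the depth that sets it is unknown.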
